A study of Mus musculus with 188 samples.

Results

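The genes described here encode the subunits of the proteasome and the factors that assemble or cap it. They were taken by symbol, as every protein-coding gene named Psma, Psmb, Psmc, Psmd, Psme, Psmf or Psmg with a number, together with Pomp, and 49 of the 25472 genes listed in every count file met this rule. The 49 genes comprised 14 subunits of the 20S core (7 of the alpha ring and 7 of the beta ring), 17 subunits of the 19S regulatory particle (6 ATPases and 11 others), 5 genes of the immunoproteasome, 8 assembly chaperones, 3 other activators or inhibitors and 2 subunits known from testis and thymus.

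The proteasome degrades proteins that carry ubiquitin chains. The barrel-shaped 20S core holds the proteolytic sites on its beta subunits, its alpha rings gate the entrance, and the 19S particle recognises ubiquitin, unfolds the substrate and threads it into the core. In interferon-exposed cells and in microglia, the inducible beta subunits of the immunoproteasome can take the place of the constitutive catalytic subunits, and oxidative stress or proteasome inhibition is known to raise proteasome genes through the transcription factors NRF2 (Nfe2l2) and NRF1 (Nfe2l1).

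Bulk mRNA was sequenced from organotypic brain slice cultures (BSC) of C57BL/6J mice of both sexes aged 6 to 8 weeks, with 2 coronal slices on each culture insert, exposed from culture day 7. In sequencing batch 1, 10 libraries each came from untreated control slices, from slices given heme bound to albumin (heme-albumin) at 12.5, 50, 200 or 400 µM, and from slices given heme bound to hemopexin (hemeHpx) at 200 µM, all for 24 h. In batches 2 and 3, slices were left untreated (10 libraries at 24 h and 9 at 48 h) or received free hemoglobin (Hb) at 200 or 400 µM (10 libraries for each dose and time), the hemoglobin-haptoglobin complex HbHp at 200 µM (8 and 8 libraries) or 400 µM (4 at 24 h and 5 at 48 h), or haptoglobin alone (Hp) at 400 µM (12 and 11). No allele or transgene was shared by the groups, the proteins given were of human origin, and the titles of the hemeHpx libraries read heme-haptoglobin whereas their treatment tag and library name give hemopexin, which was followed here. A code in the library names, E1 or E2, splits batches 2 and 3 and is called the experiment here, although its meaning is not stated in the labels. HbHp was given in E2 alone, Hp in both, and 14 of the 19 controls belonged to E1. All HbHp and Hp libraries were sequenced in batch 3, which held 1 control of E1 and 1 of E2 at each time. The other controls were in batch 2. Nothing in the labels says that the libraries of a group came from separate animals, so that p-values measure the spread between libraries. The code that ends each library name recurs across groups and, for some codes, within a group. No term for that code was in the main tests. A further 21 libraries could not be placed in a group and entered no comparison.

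Batch 1 libraries held between 11038484 and 44199060 counts, those of batch 2 between 32626873 and 54174784 and those of batch 3 between 15587938 and 38839614, and the 49 genes together took 0.347 to 0.570% of them. Levels are given as CPM, counts scaled by the TMM-adjusted total of each library. The tissue label was met by its markers: in batch 1 controls the summed level of 6 neuron markers was 496 to 659 (median 554), that of 6 astrocyte markers 6374 to 10709.9 (median 9508) and that of 6 oligodendrocyte markers 15118 to 27533 (median 18852) CPM, and no marker was at 0. A pair of libraries stood apart from their groups in these genes. In replicate 1 of HbHp 200 µM at 48 h, 44 of the 49 genes lay above the 7 other libraries of the group, as did 35.1% of all tested genes, and 1390 genes differed by more than 1 on the log2 scale from the median of the others (71 to 288 genes in each of the others). In replicate 8 of heme-albumin 400 µM, 34 members lay above the 9 others, as did 19.8% of all tested genes. Counts of calls over all members in these groups against control are given with and without these libraries. Counts by subgroup, the dose order and the contrast of 48 h with 24 h rest on all libraries unless stated.

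Counted per kilobase of transcript, the scale used here for comparing genes with each other, the constitutive proteasome was far more abundant than its inducible form. In batch 1 control slices the 14 genes of the 20S core had a median of 72.4 (28.9 to 169) CPM per kb, and the 17 genes of the 19S particle had a median of 62.9 (35.4 to 89.2) CPM per kb. The 5 immunoproteasome genes reached 15.7 (2.76 to 36.2) and the 8 chaperones 11.9 (9.62 to 51.8) CPM per kb. Psmb6, the caspase-like catalytic subunit, was the highest of all members at 169 ± 17.3 CPM per kb (SD, n = 10), and Psmb9, its inducible counterpart, stood at 2.76 ± 1.11 CPM per kb. Among the chaperones, Pomp, which guides maturation of the 20S core, was the highest at 51.8 ± 3.88 CPM per kb, and the chaperone Psmd9 the lowest at 9.62 ± 1.36 CPM per kb. The germ-cell subunit Psma8 was at 0.588 ± 0.248 CPM per kb. Psmb11, the thymus subunit, had 0 to 18 counts per library with a median of 3 in both sets of libraries, failed the filter on low counts in batch 1, and is given no fold change. The remaining 48 members were tested in batch 1 and all 49 in batches 2 and 3.

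The sequence before the start of these genes was read where a promoter table held it. RefSeq promoter windows on GRCm38.p6, each covering 250 bases before to 50 bases after a gene's start, were matched for 41 of the 49 members. The core of the antioxidant response element that NRF2 and NRF1 bind, searched on both strands as TGACNNNGC and GCNNNGTCA, was found in the windows of 6 member genes (Psmb5, Psmb6, Psmc6, Psmd12, Psmd9 and Psme4) of 41, and in 12.4% of all 32851 promoter windows. A motif of interferon-driven factors, searched as GAAANNGAA and TTCNNTTTC, was found for 8 of 41 members against 8.56% of all windows. The 8 were Pomp, Psmb3, Psmb4, Psmc2, Psmd4, Psmd9, Psme1 and Psmg4. Of the immunoproteasome genes Psme1 alone had a match, and Psmb8, Psmb9, Psmb10 and Psme2 had none. The CCAAT box (CCAAT and ATTGG) was found for 14 of 41 against 37.4%. The 41 genes had 44 windows, and 6, 8 and 14 of these windows held the motifs in the order given. Overlap between matches of different motifs was not scored, and a match describes the sequence only.

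Below, the 250 bases before the start of 4 genes are printed, 5′ to 3′ on the strand of the gene, with any antioxidant response element core in capitals. They are Psmd11, the member that rose in the largest number of comparisons, Psmd12, another subunit of the 19S lid, and the catalytic subunits Psmb5 and Psmb6. Their positions on GRCm38.p6 are chr11:80428365-80428614, plus strand, for Psmd11, chr11:107479278-107479527, plus strand, for Psmd12, chr14:54617996-54618245, minus strand, for Psmb5, and chr11:70525107-70525356, plus strand, for Psmb6. The core lay 247 bases before the start of Psmd12, 47 before that of Psmb5 and 9 before that of Psmb6, and its letters were not in the window of Psmd11.
Psmd11: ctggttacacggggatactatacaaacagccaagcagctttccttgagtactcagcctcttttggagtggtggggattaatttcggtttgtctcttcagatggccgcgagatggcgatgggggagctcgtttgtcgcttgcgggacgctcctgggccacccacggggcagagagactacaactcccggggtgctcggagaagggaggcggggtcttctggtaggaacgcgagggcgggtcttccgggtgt
Psmd12: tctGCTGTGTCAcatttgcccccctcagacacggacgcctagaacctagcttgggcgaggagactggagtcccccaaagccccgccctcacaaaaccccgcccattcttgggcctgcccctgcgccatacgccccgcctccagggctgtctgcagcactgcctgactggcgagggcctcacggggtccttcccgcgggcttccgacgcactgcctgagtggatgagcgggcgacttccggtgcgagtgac
Psmb5: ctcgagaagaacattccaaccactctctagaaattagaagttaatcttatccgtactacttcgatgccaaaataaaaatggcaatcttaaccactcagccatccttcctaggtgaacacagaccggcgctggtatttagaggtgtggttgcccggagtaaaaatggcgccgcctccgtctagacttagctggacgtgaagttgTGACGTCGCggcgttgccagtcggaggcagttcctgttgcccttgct
Psmb6: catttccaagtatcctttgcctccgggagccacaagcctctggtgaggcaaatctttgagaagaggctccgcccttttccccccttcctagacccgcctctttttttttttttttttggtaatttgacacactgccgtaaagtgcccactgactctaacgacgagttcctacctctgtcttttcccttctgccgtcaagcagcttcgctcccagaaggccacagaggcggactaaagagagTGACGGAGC

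The first comparison asked how the proteasome genes responded to increasing heme-albumin over 24 h. Constitutive proteasome genes rose together at the upper doses. The geometric mean of the 31 genes of the 20S core and 19S particle was 98.7 ± 5.40 CPM in control slices (SD, n = 10), 103 ± 6.32 at 12.5 µM, 105 ± 6.86 at 50 µM, 113 ± 4.07 at 200 µM and 121 ± 10.1 at 400 µM. Single control libraries ran from 91 to 106 (median 98.5) and those given 400 µM from 109 to 145 (median 120.1), so that these groups did not overlap, whereas those at 12.5 µM, from 95.4 to 114 (median 101), and at 50 µM, from 97.2 to 117 (median 106), overlapped the controls and reached past the highest of them. Because bulk RNA was measured, fewer cells of a type and less RNA per cell cannot be told apart here or in any later comparison.

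Tested gene by gene with edgeR's quasi-likelihood test and Benjamini-Hochberg adjustment over 15554 genes (threshold 0.05), no member passed at 12.5 µM, where 9 of 48 had an unadjusted p under 0.05 and DESeq2 likewise called 0. Among all tested genes 0.0386% were called higher and 0.00643% lower, and 1226 had an unadjusted p under 0.05. At 50 µM only Psmd11 rose. The background over all tested genes was 0.45% higher and 0.0129% lower. At 200 µM 25 of the 48 tested members rose and 1, Psme1, fell. For comparison, 6.98% of all tested genes were higher and 6.6% were lower. At 400 µM 31 members rose. Across every tested gene, calls amounted to 14.7% higher and 14.3% lower. The median log2 fold change of the members was 0.05, 0.07, 0.16 and 0.24 at the 4 doses, and that of all tested genes was -0.01 at each dose. Without replicate 8 of the 400 µM group, 30 members rose, Psme1 fell, and the median was 0.20. The shares of all tested genes above are from the fit with all libraries. The sets shown library by library place the constitutive genes and the inducible genes side by side.

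**Figure D1:**
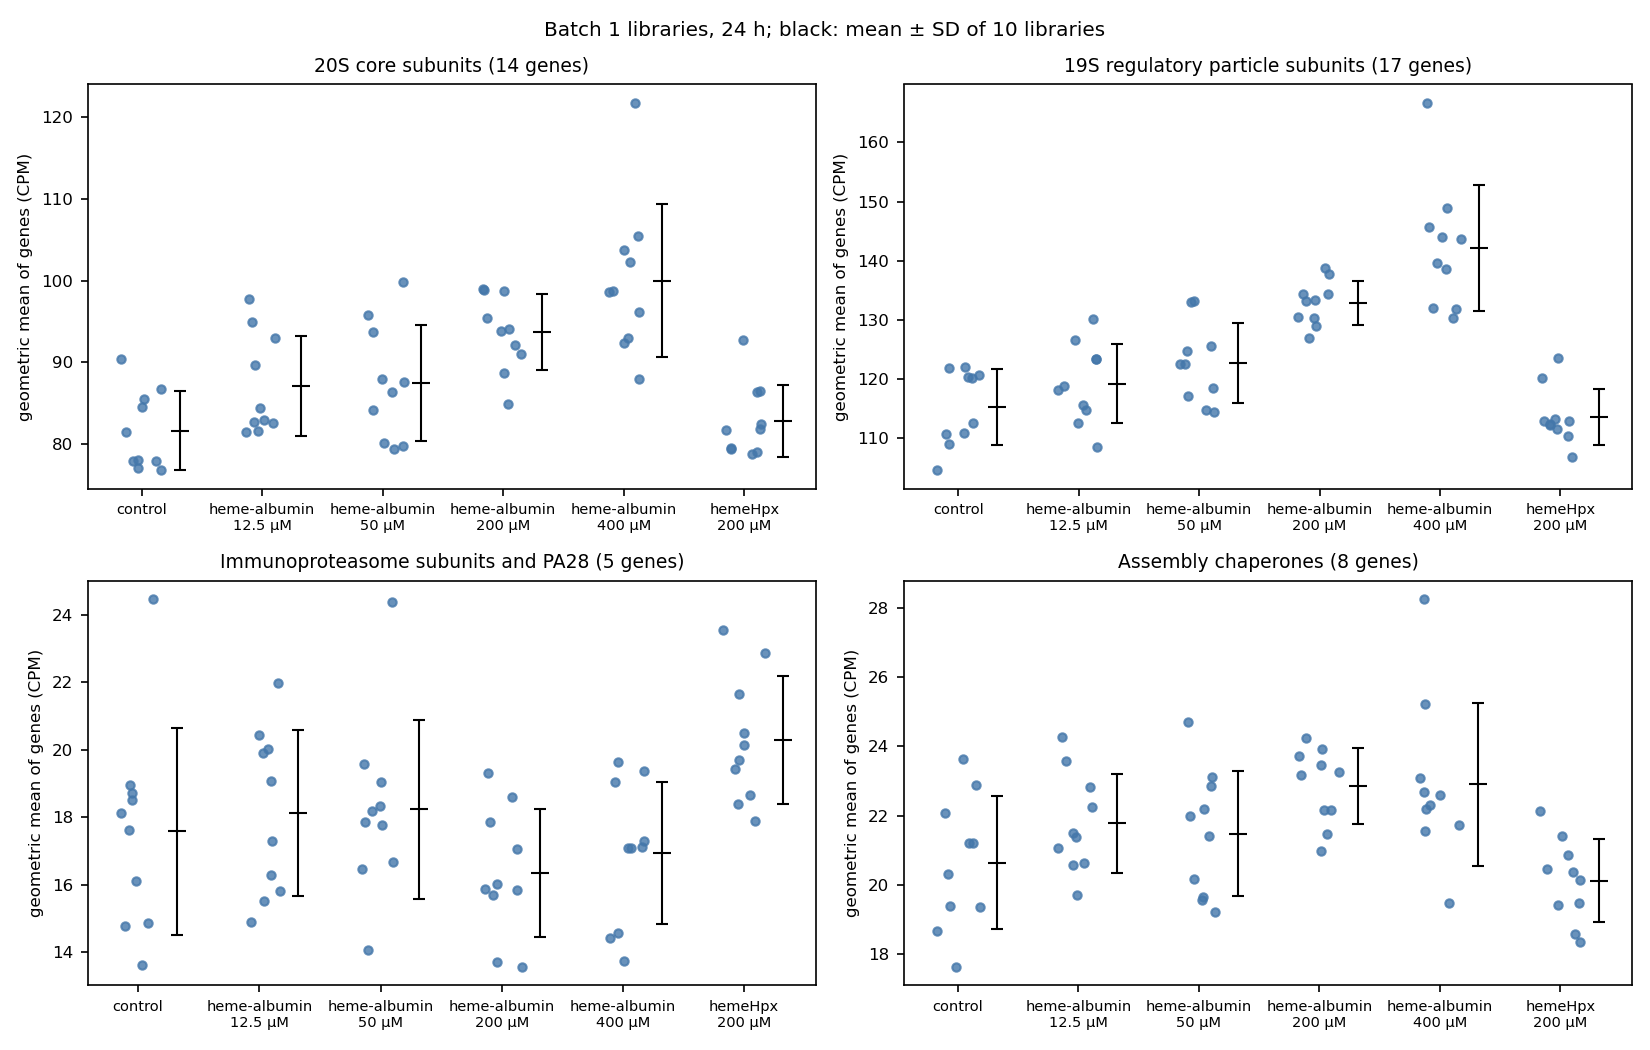
Geometric mean CPM of the genes of each set (vertical axes, which do not start at 0) in every batch 1 library, grouped by treatment on the horizontal axis, with black bars for the mean ± SD of 10 libraries. The 19S panel climbs from a mean of 115 in controls to 142 CPM at 400 µM heme-albumin, with 1 library of that group at 167, while the immunoproteasome panel shows overlapping groups.

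In the 19S particle, 15 of 17 subunits rose at 200 µM and 16 of 17 at 400 µM, with set medians of 0.20 and 0.30 on the log2 scale. Psmd11, a scaffold subunit of the 19S lid, had the largest change of the set. Its level ran from 90.2 to 109 CPM (median 101) in controls, 95 to 115 (median 108) at 12.5 µM, 103 to 126 (median 117) at 50 µM, 123 to 140.0 (median 127) at 200 µM and 136 to 162 (median 149.7) at 400 µM. Every library at 200 and 400 µM lay above every control library, and those at the lower doses overlapped the controls. The log2 fold changes were 0.19 ± 0.04, adjusted p = 0.00459 at 50 µM, 0.35 ± 0.04, adjusted p = 3.29e-09 at 200 µM and 0.57 ± 0.04, adjusted p = 2.65e-17 at 400 µM (± SE). Psmd11 was also the only member called at the steps from 50 to 200 µM, by 0.16 ± 0.04, adjusted p = 0.0383, and from 200 to 400 µM, by 0.22 ± 0.04, adjusted p = 9.92e-04, and the step from 12.5 to 50 µM was not tested. For the first of these steps 0.431% of all tested genes were called higher and 0.366% lower, and for the second 0.707% and 0.559%. Under a correction for GC content and length, 4 and 6 members were called higher at these steps, and with no filter on low counts the call from 50 to 200 µM was lost.

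Psmd4, a ubiquitin receptor of the 19S particle, ran from 83.2 to 104 CPM (median 93.1) in controls and 109 to 152 (median 135) at 400 µM, without overlap, and changed by 0.32 ± 0.06, adjusted p = 5.29e-05 at 200 µM and 0.49 ± 0.06, adjusted p = 8.14e-10 at 400 µM. Psmd3, a lid subunit, ran from 111 to 159 CPM (median 132) in controls and 167 to 202 (median 179) at 400 µM, again without overlap, and changed by 0.31 ± 0.06, adjusted p = 8.49e-05 and 0.41 ± 0.06, adjusted p = 4.83e-08. All 6 ATPases (Psmc1 to Psmc6), the motor that unfolds substrates, rose at both doses, by 0.15 to 0.27 at 200 µM and by 0.21 to 0.36 at 400 µM. Psmd14, the deubiquitinase of the lid, rose by 0.20 ± 0.07 and 0.33 ± 0.07. Psmd8, another lid subunit, was the exception in this set at 400 µM, with 154 to 189 CPM (median 161) in controls, 148 to 198 (median 165) at 400 µM and a log2 fold change of -0.01 ± 0.05, adjusted p = 0.952.

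In the 20S core, 9 of 14 subunits rose at 200 µM and 13 of 14 at 400 µM, where only Psmb1 did not pass (0.13 ± 0.06, adjusted p = 0.0833). The largest changes were in the alpha ring. Psma5 ran from 40.2 to 55 CPM (median 47.4) in controls and 55.9 to 78.3 (median 63.6) at 400 µM, with every library at 400 µM above the highest control, and changed by 0.35 ± 0.07, adjusted p = 2.63e-04 and 0.45 ± 0.07, adjusted p = 8.79e-07 at 200 and 400 µM. Psma7 ran from 71.4 to 105 CPM (median 84.6) in controls and 103 to 130.3 (median 118) at 400 µM, where the groups overlapped slightly, and changed by 0.31 ± 0.07, adjusted p = 7.40e-04 and 0.43 ± 0.07, adjusted p = 6.49e-07. The 3 catalytic subunits all rose at 400 µM. Psmb5, which carries the chymotrypsin-like site and whose promoter is printed above, ran from 31.8 to 63.5 CPM (median 48.2) in controls and 55 to 69.4 (median 62.8) at 400 µM, so that the groups overlapped, and changed by 0.38 ± 0.10, adjusted p = 0.00318. Psmb6, the caspase-like subunit, ran from 115 to 154 CPM (median 128) and 137 to 194 (median 160.4) with overlap and changed by 0.28 ± 0.07, adjusted p = 8.58e-04. Psmb7, the trypsin-like subunit, ran from 78.7 to 98.9 CPM (median 91.4) and 99.3 to 131 (median 110.3) without overlap and changed by 0.30 ± 0.05, adjusted p = 1.12e-05. At 200 µM the changes of Psmb5 (0.29 ± 0.10, adjusted p = 0.0421) and Psmb7 (0.15 ± 0.05, adjusted p = 0.0493) passed, and that of Psmb6 was 0.17 ± 0.07, adjusted p = 0.0708.

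The immunoproteasome genes did not follow the constitutive ones. At 200 µM 1 of the 5, Psme1, fell and the other 4 did not pass, and at 400 µM the 5 log2 fold changes lay between -0.17 and 0.10 and did not pass either. Psmb8, the inducible chymotrypsin-like subunit, ran from 9.55 to 26.6 CPM (median 15.8) in controls, 8.91 to 17.1 (median 13.3) at 200 µM and 10.1 to 18.5 (median 13.4) at 400 µM, and the groups overlapped throughout. Its log2 fold change was -0.23 ± 0.15, adjusted p = 0.314 at 200 µM and -0.15 ± 0.15, adjusted p = 0.473 at 400 µM. Psmb9, the inducible counterpart of the caspase-like subunit, ran from 1.82 to 7.23 CPM (median 3.60) in controls and 1.98 to 4.15 (median 2.82) at 200 µM, with -0.38 ± 0.19, adjusted p = 0.173. Psmb10, the inducible trypsin-like subunit, was at 0.13 ± 0.09, adjusted p = 0.319 at 200 µM and 0.10 ± 0.09, adjusted p = 0.398 at 400 µM on the same scale. Psme1, the alpha part of the PA28 cap that opens the core of the immunoproteasome, fell by 0.13 on the log2 scale at 200 µM (adjusted p = 0.0337), with 32.1 to 37.9 CPM (median 34.6) in controls and 28.9 to 33.5 (median 31.3) at 200 µM, and its value at 400 µM was -0.10 ± 0.04, adjusted p = 0.0883. The call at 200 µM was lost with no filter on low counts. Its partner Psme2 was at -0.01 ± 0.07, adjusted p = 0.931 and -0.01 ± 0.07, adjusted p = 0.931, although reads of Psme2 can be shared with the near-identical copy Psme2b.

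Per kilobase, Psmb8 made up 15% ± 3.31 of the sum of Psmb8 and Psmb5 in control slices (SD, n = 10), 10.8% ± 1.46 at 200 µM and 10.7% ± 1.94 at 400 µM. The same share of Psmb9 with Psmb6 was 1.59% ± 0.555, 1.11% ± 0.246 and 1.19% ± 0.328, and that of Psmb10 with Psmb7 was 16.8% ± 2.89, 16.7% ± 1.33 and 15% ± 1.40. These shares are descriptions without a test. Microglia express much of the immunoproteasome in brain tissue, and their markers moved in the same groups. Of 6 microglia markers, 5 fell at 200 µM and 3 at 400 µM, and their summed level was 307 to 1059 (median 517) CPM in controls, 209 to 485 (median 357) at 200 µM and 197 to 607 (median 385) at 400 µM, with no marker at 0. Their part in the values of the inducible subunits was not tested. Of 6 astrocyte markers, 2 fell at 200 µM and 4 at 400 µM, where their sum was 4877 to 8639.8 (median 6804) against 6374 to 10709.9 (median 9508) CPM in controls, and their part in the changes was not tested either.

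Of the 8 assembly chaperones, Psmd5, a chaperone of the 19S base, was the only one that rose with heme-albumin. It ran from 39 to 53.9 CPM (median 46.8) in controls and 48.5 to 74.8 (median 58.6) at 400 µM, where the groups overlapped, and changed by 0.30 ± 0.07, adjusted p = 0.00237 at 200 µM and 0.38 ± 0.07, adjusted p = 3.78e-05 at 400 µM. Pomp had 0.08 ± 0.06, adjusted p = 0.369 and 0.08 ± 0.06, adjusted p = 0.264, and the 4 chaperones of the alpha ring (Psmg1 to Psmg4) had values between 0.02 and 0.21 at 400 µM, none past the threshold. Psme4, the PA200 activator, had 0.10 ± 0.06, adjusted p = 0.33 and 0.11 ± 0.06, adjusted p = 0.195, and Psmf1, the inhibitor-like protein PI31, rose by 0.13 ± 0.04, adjusted p = 0.0179 at 400 µM. The germ-cell subunit Psma8, with 4 to 59 counts per library, had -0.43 ± 0.25, adjusted p = 0.2.

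The order of the doses was kept by most constitutive genes. The log2 fold change was larger at each successive dose in 24 of the 31 genes of the 20S core and 19S particle (77.4%), against 15.3% of all tested genes. Most of these were in the 19S particle, where 16 of 17 genes kept the order. In the 20S core 8 of 14 did, with 3 of 7 in the alpha ring and 5 of 7 in the beta ring. No gene of the immunoproteasome and 1 of the 8 chaperones showed that order. The map of log2 fold changes by gene and comparison shows where it held.

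**Figure D2:**
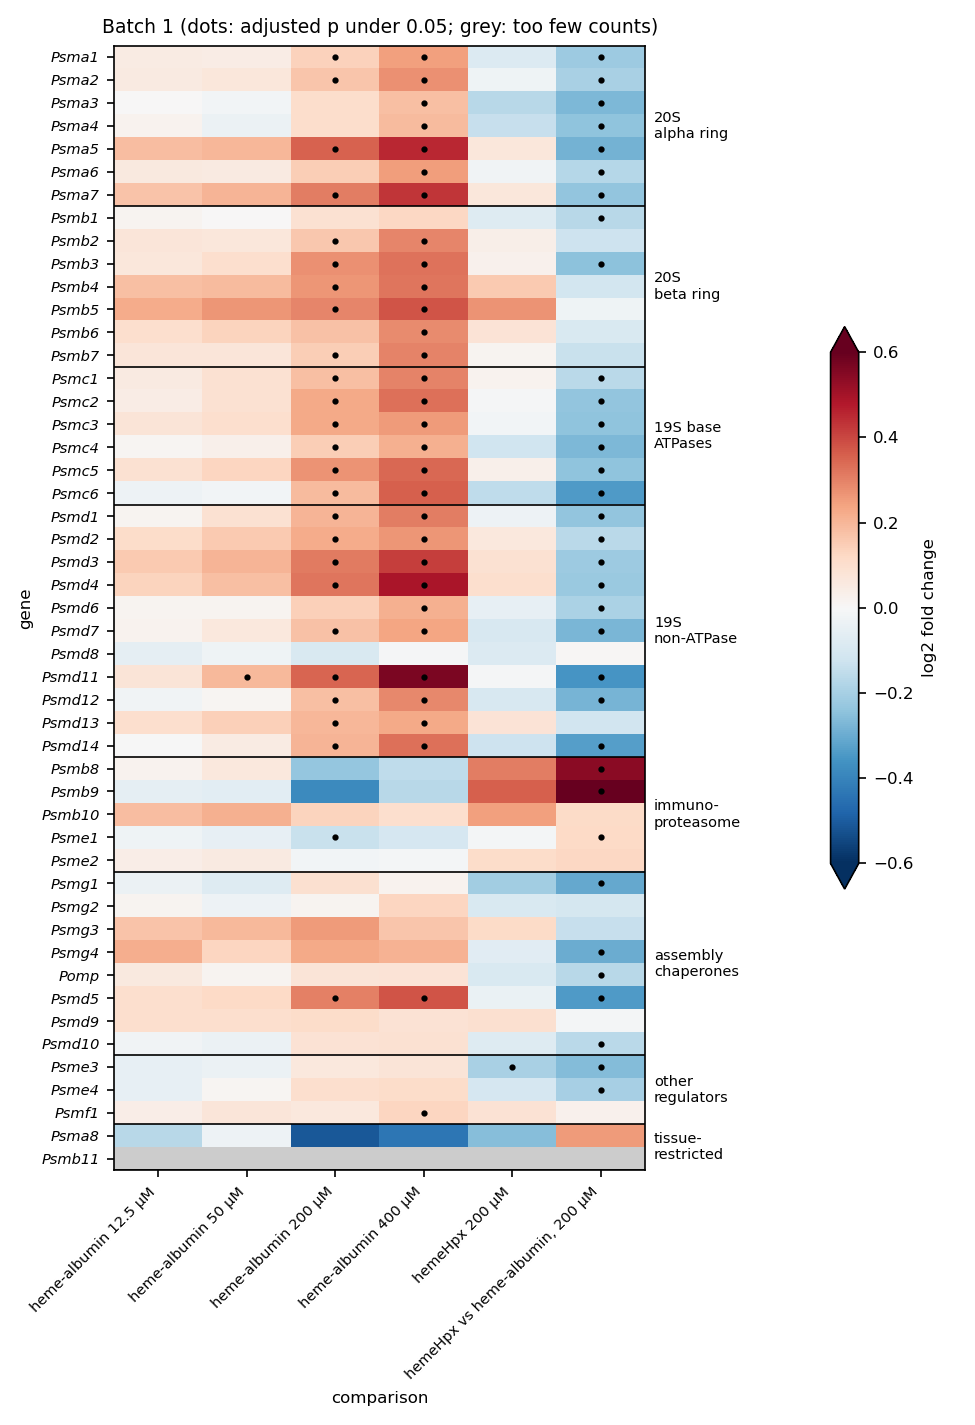
Log2 fold change against control (and of hemeHpx against heme-albumin in the last column) for each member in batch 1, genes in rows by role and comparisons in columns, with color running from blue (lower) to red (higher), dots for an adjusted p under 0.05 and grey for Psmb11, whose counts were too few. Red deepens at each step across the heme-albumin columns in 16 of 17 19S genes, up to 0.57 for Psmd11, and in 8 of 14 20S genes. In the hemeHpx column the largest values are 0.36 for Psmb9 and 0.31 for Psmb8.

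The second comparison asked how the genes stood when the same dose of heme was bound to hemopexin, the plasma protein with the tightest known hold on heme. With hemeHpx at 200 µM the mean of the 31 constitutive genes was 98.5 ± 4.47 CPM, next to 98.7 ± 5.40 in controls, and the libraries of the groups overlapped over nearly their whole range. Of 48 tested members 1 was called by edgeR, Psme3, the nuclear PA28 gamma activator, which fell by 0.20 on the log2 scale (adjusted p = 0.0381). Its level was 97.3 to 137 CPM (median 115) in controls and 96 to 111 (median 102) with hemeHpx, and the groups overlapped. This call was lost under a correction for GC content and length and with no filter on low counts. Calls over the whole transcriptome made up 3.77% higher and 4.44% lower. By edgeR none was called higher, and DESeq2 called 1 higher. An unadjusted p under 0.05 was found for 12 of the 48 members and for 4875 of the 15554 tested genes. With the code that ends each library name as a replicate block, 4 members were called higher and 5 lower. The shares of all tested genes given above are not from that fit. Psmd11 was at 90.3 to 109 CPM (median 100.1) and -0.01 ± 0.04, adjusted p = 0.941. Psmb5, Psmb8 and Psmb9 had values of 0.27 ± 0.10, adjusted p = 0.0718, 0.31 ± 0.15, adjusted p = 0.141 and 0.36 ± 0.18, adjusted p = 0.17, none of which passed.

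Set directly against heme-albumin at 200 µM, hemeHpx slices had lower levels of 31 of the 48 members and higher levels of 3, with a median log2 difference of -0.19 (0.01 over all tested genes). This stood against 13% of all tested genes higher and 12.9% lower. Both comparisons with control share the same control libraries, while this difference does not use them. The 31 genes included all 7 alpha subunits, all 6 ATPases, 9 of the 11 other 19S subunits, 2 of the 7 beta subunits and 5 of the 8 chaperones. Psmd11 was lower by a log2 difference of -0.35 ± 0.04, adjusted p = 2.44e-09, and its highest hemeHpx library, at 109 CPM, lay below its lowest heme-albumin library, at 123 CPM. Psmd5 (-0.34 ± 0.07, adjusted p = 4.77e-04), Psmc6 (-0.34 ± 0.06, adjusted p = 8.44e-05) and Psmd14 (-0.33 ± 0.06, adjusted p = 2.65e-04) were next in size. Psmc6 is an ATPase of the 19S base, and its hemeHpx libraries, at 81.1 to 94.9 (median 85.5), lay below all those with heme-albumin, at 101 to 132 (median 109.7). The catalytic subunits Psmb5 (-0.03 ± 0.10, adjusted p = 0.867), Psmb6 (-0.09 ± 0.07, adjusted p = 0.286) and Psmb7 (-0.13 ± 0.05, adjusted p = 0.0529) were not among the 31, and Pomp (-0.17 ± 0.06, adjusted p = 0.021) and Psme4 (-0.20 ± 0.06, adjusted p = 0.0202) were.

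The 3 genes with higher levels in hemeHpx than in heme-albumin slices all belonged to the immunoproteasome. Psmb9 differed by 0.74 ± 0.18, adjusted p = 0.00326, with 3.62 to 6.52 CPM (median 4.86) in hemeHpx and 1.98 to 4.15 (median 2.82) in heme-albumin slices. Psmb8 differed by 0.54 ± 0.15, adjusted p = 0.00632, with 13.6 to 23.6 CPM (median 19.5) and 8.91 to 17.1 (median 13.3), and Psme1 by 0.12 ± 0.04, adjusted p = 0.0372. The groups overlapped for each of the 3. Psmb10 (0.11 ± 0.08, adjusted p = 0.301) and Psme2 (0.13 ± 0.07, adjusted p = 0.186) did not pass. Psmb8 took 15.3% ± 2.71 of the sum with Psmb5 in hemeHpx slices. In this comparison 5 of the 6 microglia markers were also higher with hemeHpx, with a summed level of 333 to 837 (median 607) against 209 to 485 (median 357) CPM and no marker at 0, as were 3 of 6 oligodendrocyte, 2 of 6 astrocyte and 2 of 6 endothelial markers. Their part in the difference was not tested.

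Genes around the proteasome were described from lists. Of 9 regulators of proteasome gene expression, 4 rose at 200 µM and 7 at 400 µM heme-albumin (list medians 0.16 and 0.27). Nfe2l1, which encodes NRF1, rose by 0.23 ± 0.06, adjusted p = 0.00914 and 0.41 ± 0.06, adjusted p = 9.68e-07, and Nfe2l2, which encodes NRF2, had 0.16 ± 0.09, adjusted p = 0.238 at 200 µM and rose by 0.27 ± 0.09, adjusted p = 0.0187 at 400 µM. Ddi2, the protease that activates NRF1, had 0.06 ± 0.05, adjusted p = 0.451 at 400 µM. Of 10 tested factors that bind the proteasome, 2 rose at 200 µM and 6 at 400 µM, among them the ubiquitin receptor Adrm1 with 0.56 ± 0.06, adjusted p = 5.40e-10 and the deubiquitinase Usp14 with 0.27 ± 0.06, adjusted p = 1.75e-04. Of 12 ubiquitin genes and shuttle factors, 5 and 6 rose, the largest being Sqstm1, a shuttle to autophagy, at 1.34 ± 0.09, adjusted p = 1.17e-17. All 10 of a list of NRF2 targets rose at both doses (medians 0.90 and 1.11), and 4 of the 10 with hemeHpx (0.23). With hemeHpx, 1 regulator, and 1 ubiquitin gene, Sqstm1 (0.32 ± 0.09, adjusted p = 0.0374), rose, and against heme-albumin 7 of the 10 bound factors were lower.

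In batches 2 and 3 libraries coded E1 and E2 were compared first, with treated and untreated libraries together. Across all groups given in both, 12 of the 49 members were called higher and 17 lower in E2 than in E1. Among all tested genes 36.1% were called higher and 31.9% lower. All 5 immunoproteasome genes were higher in E2, Psmb8 by 0.66 ± 0.07, adjusted p = 3.95e-14 and Psmb9 by 0.66 ± 0.08, adjusted p = 1.24e-11, and the 6 microglia markers were all higher there too, as were 11 of 12 genes of interferon response and antigen presentation. Psmd11 was lower in E2, with a log2 difference of -0.14 ± 0.02, adjusted p = 1.58e-08, and Psmd8 higher, with 0.26 ± 0.03, adjusted p = 1.76e-10. Batch and experiment were therefore both terms of the model. Since HbHp was given in E2 alone, its comparison with control rests on the 3 controls of E2 at 24 h and the 2 at 48 h. Of these, 1 at each time was in batch 3, like the HbHp libraries. For the other controls the comparison relies on the additive batch and experiment terms. Untreated slices at 48 h and 24 h did not differ in any member by edgeR, and DESeq2 called 0. An unadjusted p under 0.05 was found for 1 member and for 3226 of the 16473 tested genes. At 48 h, 1.66% of all tested genes were higher and 2.85% lower.

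Few of these genes passed the test with free Hb. The mean of the 31 constitutive genes was 101 ± 3.62 CPM in controls at 24 h (n = 10), 107 ± 6.36 with 200 µM and 108 ± 5.71 with 400 µM Hb, and the libraries overlapped. At 200 µM no member passed edgeR's test at 24 h or at 48 h, and at 400 µM none passed at 48 h. DESeq2 called 0 in these 3 comparisons. An unadjusted p under 0.05 was found for 18, 14 and 9 members in that order. Over all 16473 tested genes it was found for 516, 784 and 1164. At 400 µM and 24 h 4 members rose, all linked to the 19S particle: Psmd11 (0.24 ± 0.04, adjusted p = 2.75e-05), Psmd5 (0.21 ± 0.05, adjusted p = 0.0299), Psmd1 (0.17 ± 0.03, adjusted p = 0.00105) and Psmd3 (0.16 ± 0.04, adjusted p = 0.013). Psmd11 ran from 86.9 to 99.8 CPM (median 92.1) in controls and 101 to 121 (median 107) with 400 µM Hb, without overlap. Of these 4, Psmd11 alone passed in the libraries of E2, and with the batch term only or without terms Psmd11 and Psmd1 passed. Of all tested genes 0.0789% were higher and 0.0182% lower at 200 µM and 24 h, 0.474% and 0.0486% at 400 µM and 24 h, 0.279% and 0.0304% at 200 µM and 48 h, and 0.486% and 0.115% at 400 µM and 48 h. The members' medians in the same order were 0.08, 0.08, 0.07 and 0.04.

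With Hp alone at 400 µM Psmd11 rose at both times, by 0.22 ± 0.04, adjusted p = 0.00754 at 24 h and 0.16 ± 0.05, adjusted p = 0.0132 at 48 h. At 48 h Psme4 rose (0.16 ± 0.05, adjusted p = 0.0176) and Psmc4, an ATPase of the base, fell by 0.14 on the log2 scale (adjusted p = 0.0201). At 24 h, the background over all tested genes was 0.474% higher and 0.231% lower. At 48 h, for comparison, 4.88% of all tested genes were higher and 5.88% were lower. Psmd11 was described in each experiment by itself. In E1 it ran from 114 to 139.9 CPM (median 120.4) with Hp and 89.2 to 99.8 (median 92.2) in controls at 24 h, without overlap. In E2 it ran from 97.1 to 105 CPM (median 99.8) with Hp, and the 3 controls were at 86.9, 96.9 and 89.7, also without overlap. Only 1 control of each experiment at 24 h was in batch 3, where all Hp libraries were sequenced. Fitted in the libraries of E2 alone, the log2 fold change of Psmd11 with Hp was 0.14 ± 0.06, adjusted p = 0.48 at 24 h and 0.10 ± 0.06, adjusted p = 0.71 at 48 h, and neither passed. The calls of higher members with Hp were also lost under a correction for GC content and length, as was that of Psmc4, which was lost too in the libraries of E2 alone (-0.11 ± 0.07, adjusted p = 0.687), without batch and experiment terms and with a replicate block. Whether the response of Psmd11 to Hp differed between E1 and E2 was not tested.

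With HbHp a small group of genes led by Psmd11 rose at 24 h. At 200 µM 4 members rose, Psmd11 (0.27 ± 0.05, adjusted p = 1.88e-04), Psmd5 (0.25 ± 0.07, adjusted p = 0.0255), Psme4 (0.22 ± 0.05, adjusted p = 0.00689) and Psmd1 (0.15 ± 0.04, adjusted p = 0.0307). Across every tested gene, calls amounted to 1.66% higher and 0.273% lower. At 400 µM 5 rose, Psmd11 (0.46 ± 0.06, adjusted p = 4.00e-09), Psme4 (0.38 ± 0.06, adjusted p = 7.20e-06), Psma5 (0.28 ± 0.08, adjusted p = 0.0162), Psmd5 (0.26 ± 0.08, adjusted p = 0.0347) and Psmd1 (0.24 ± 0.05, adjusted p = 8.33e-04). Calls over the whole transcriptome made up 3.1% higher and 2.06% lower. The 4 libraries at 400 µM had 138, 131, 121 and 110.2 CPM of Psmd11, and the 3 controls of E2 had 86.9, 96.9 and 89.7 CPM. All 4 treated libraries were above those controls and above the 7 of E1, which lay at 89.2 to 99.8 (median 92.2). Psme4, which encodes the PA200 cap, was at 138, 121, 107 and 110.3 CPM in the 4 libraries and at 94.9, 104 and 84.7 CPM in the controls of E2, also without overlap. Without replicate 1 of this group 3 members passed and Psma5 and Psmd5 did not, and Psmd5 also missed the threshold without replicate 2, without replicate 4 or without control replicate 10. The members' medians were 0.02 and 0.05 at the 2 doses. In the libraries of E2 alone, 1 member rose at 200 µM and 3 at 400 µM, and the shares of all tested genes above are not from that fit.

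At 48 h with HbHp at 200 µM, the count depended on 1 library. With all 8 libraries 21 members rose, of which 8 were in the 20S core, 10 in the 19S particle and 2 among the chaperones, with a median of 0.12. This stood against 7.04% of all tested genes higher and 4.85% lower. Without replicate 1, 8 members rose and the median was 0.04, and with all libraries and a correction for GC content and length 9 rose. The shares of all tested genes just given belong to neither of these fits. The 8 members that rose without replicate 1 were Psmd11 (0.32 ± 0.05, adjusted p = 3.71e-06), Psme4 (0.30 ± 0.06, adjusted p = 9.47e-05), Psmd5 (0.28 ± 0.06, adjusted p = 5.54e-04), Psma5 (0.21 ± 0.06, adjusted p = 0.0114), Psmc6 (0.20 ± 0.05, adjusted p = 0.0132), Psmd14 (0.18 ± 0.05, adjusted p = 0.00953), Psmd1 (0.13 ± 0.04, adjusted p = 0.0256) and Psma6 (0.12 ± 0.04, adjusted p = 0.0411). The mean of the 31 constitutive genes in that library was 160.1 CPM, and the group ran from 107 to 160.1 (median 109.7) with it. Psmd11 and Psme4 were not raised in it beyond the others: Psmd11 was at 125 CPM there and at 112 to 125 CPM in the 7 others, and Psme4 at 108 and at 109 to 119 CPM. Pomp (0.22 ± 0.07, adjusted p = 0.0146 with all libraries, 0.11 ± 0.05, adjusted p = 0.214 without) and Psmb7 (0.19 ± 0.06, adjusted p = 0.0162 with all, 0.09 ± 0.04, adjusted p = 0.236 without) passed with it and not without it. Its summed microglia markers (1707 CPM, 1044 to 1441 in the others), its summed neuron markers (578 CPM, 428 to 572) and its share of mitochondrial counts (2.90%, 2.41 to 2.76%) were the highest of the group, and their part in its levels was not tested.

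At 400 µM and 48 h 13 of the 49 members rose with HbHp, 4 of the 20S core, 7 of the 19S particle, Psmd5 and Psme4, with a median of 0.10. Among all tested genes 7.39% were called higher and 4.56% lower. Psmd11 was at 130.4, 124, 139.8, 135 and 125 CPM in the 5 libraries, against 87.2 and 96.3 CPM in the 2 controls of E2 and 93.2 to 101 (median 97.5) in the 7 of E1. All 5 lay above all controls, and the log2 fold change was 0.49 ± 0.05, adjusted p = 2.79e-11. Psme4 was at 126, 112, 122, 122 and 111 CPM against 89.8 and 87.1 CPM in the controls of E2, and changed by 0.38 ± 0.06, adjusted p = 1.25e-06. Psmd5 (0.34 ± 0.08, adjusted p = 7.44e-04), Psma5 (0.30 ± 0.07, adjusted p = 0.00306), Psmd14 (0.29 ± 0.06, adjusted p = 4.11e-04) and Psmc6 (0.27 ± 0.06, adjusted p = 0.00167) followed. Without replicate 3 or replicate 4 of this group, 7 and 8 members rose. None of the catalytic subunits passed here, with 0.10 ± 0.08, adjusted p = 0.489 for Psmb5, 0.14 ± 0.07, adjusted p = 0.171 for Psmb6 and 0.07 ± 0.06, adjusted p = 0.504 for Psmb7. In the libraries of E2 alone, Psmd11 (0.49 ± 0.07, adjusted p = 3.10e-06) and Psme4 (0.43 ± 0.07, adjusted p = 1.91e-04) rose at 400 µM, and these and Psma5 at 200 µM. That fit at 200 µM held replicate 1, and Psma5 had 0.38 ± 0.11, adjusted p = 0.0483 in it. Psma5 was at 142 CPM in replicate 1 and at 77.9 to 93.2 CPM in the other libraries of the group.

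**Figure D3:**
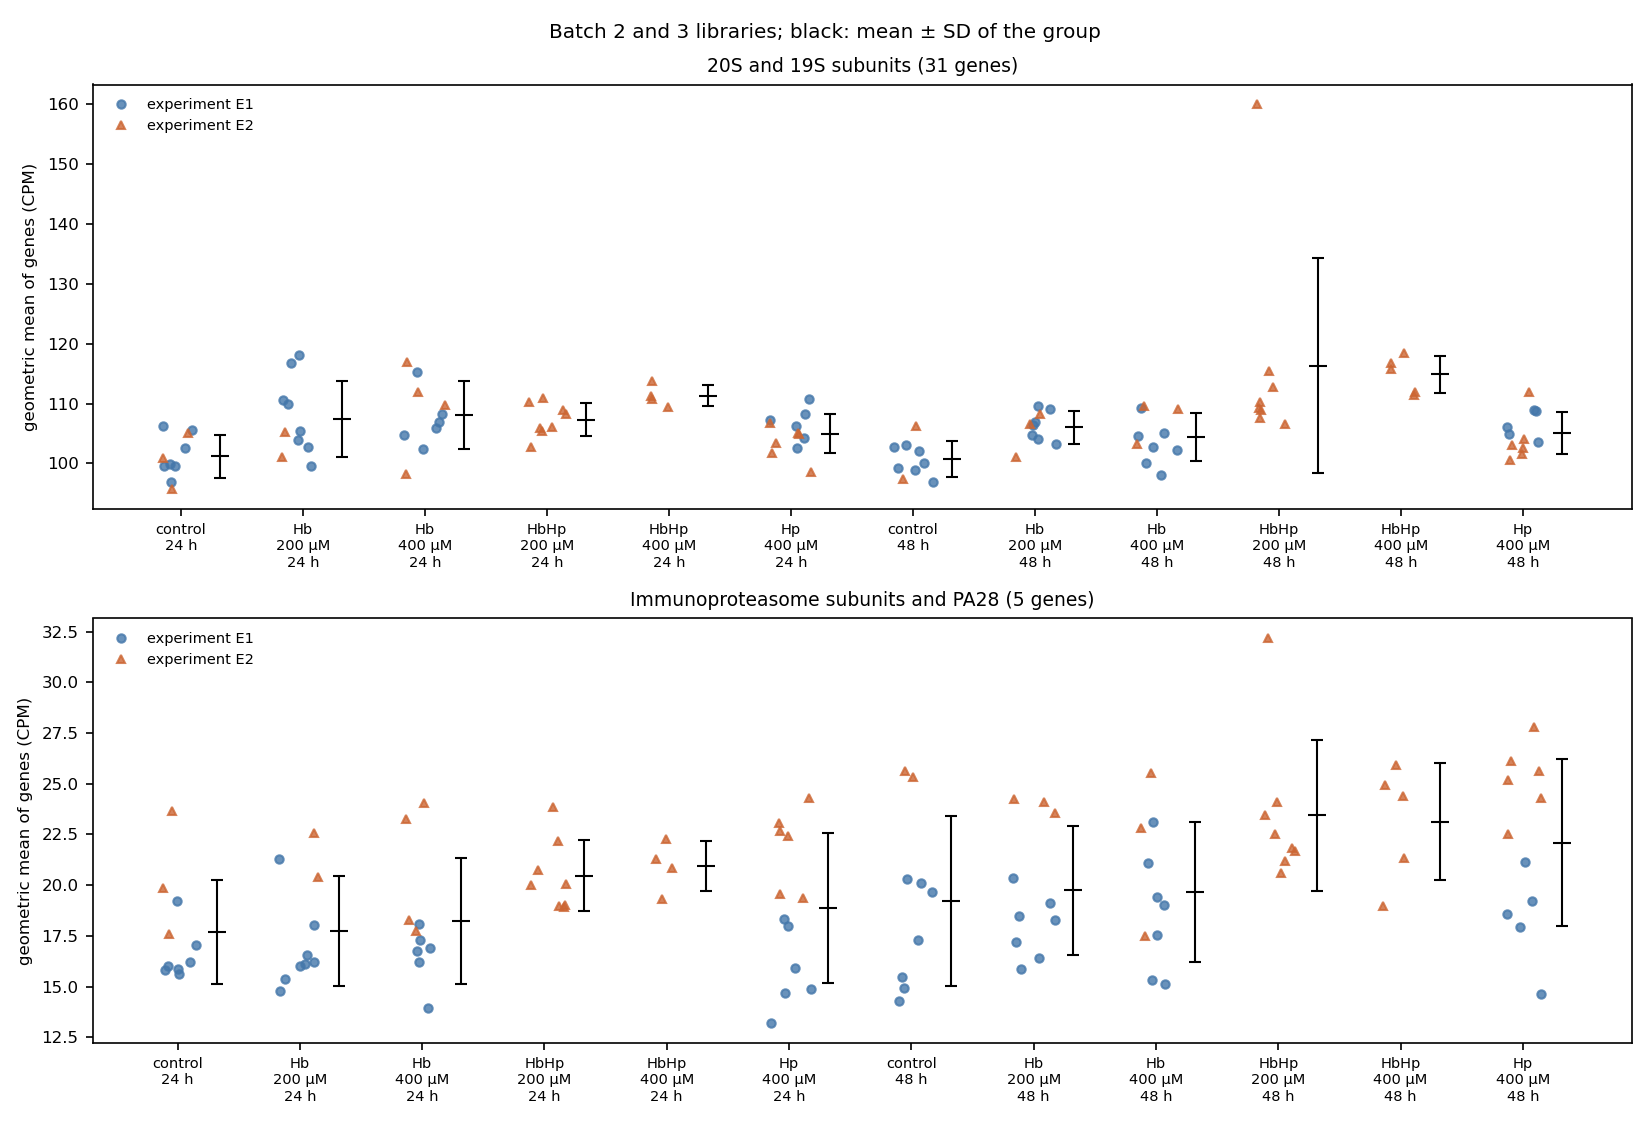
Geometric mean CPM of the 31 constitutive genes (upper panel) and the 5 immunoproteasome genes (lower panel) in every library of batches 2 and 3, by treatment and time on the horizontal axis, with circles for experiment E1, triangles for E2 and black bars for the mean ± SD (vertical axes do not start at 0). One library of HbHp 200 µM at 48 h stands at 160.1 CPM in the upper panel, and in the lower panel triangles lie mostly above circles of the same group.

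The immunoproteasome genes stayed below the threshold with HbHp. At 48 h and 400 µM the log2 fold changes were -0.12 ± 0.18, adjusted p = 0.745 for Psmb8, -0.22 ± 0.21, adjusted p = 0.565 for Psmb9, -0.04 ± 0.08, adjusted p = 0.803 for Psmb10, -0.12 ± 0.08, adjusted p = 0.355 for Psme1 and 0.05 ± 0.08, adjusted p = 0.765 for Psme2. Psmb8 was at 17.9, 25.2, 30.8, 27.7 and 22.7 CPM in the 5 HbHp libraries, at 30.4 and 31.2 CPM in the 2 controls of E2 and at 10.6 to 21.2 (median 16.4) in the 7 of E1. The microglia markers summed to 761 to 1999.6 (median 1289) CPM with HbHp and 328 to 2243 (median 911) CPM in controls. The control values pool the 7 libraries of E1 and the 2 of E2, and these markers were higher in E2, so the medians are not of like libraries. In the fit 1 of 6 markers was called lower with HbHp. None was at 0, and their part was not tested. Of the chaperones, Psmg4 had -0.20 ± 0.12, adjusted p = 0.324 and Pomp 0.15 ± 0.07, adjusted p = 0.185.

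Compared with free Hb at the same dose and time, HbHp slices differed in few members. At 48 h, Psmc6, Psmd5, Psme4 and Psmd11 were higher with HbHp at 200 µM, by 0.24, 0.27, 0.21 and 0.19 on the log2 scale, and without replicate 1 of HbHp the calls of Psmc6 and Psmd5 were lost. All 4 calls were lost under a correction for GC content and length and in the libraries of E2 alone. The background over all tested genes was 3.14% higher and 1.84% lower. At 400 µM, Psmd11 (0.35 ± 0.05, adjusted p = 7.04e-06), Psme4 (0.24 ± 0.06, adjusted p = 0.00627), Psmc6 (0.20 ± 0.06, adjusted p = 0.0451) and Psmd14 (0.19 ± 0.06, adjusted p = 0.047) were higher, and the call of Psmc6 was lost without replicate 1, 3 or 4 of HbHp and that of Psmd14 without replicate 1, 2, 3 or 4. For comparison, 2.84% of all tested genes were higher and 1.44% were lower. At 24 h and 200 µM Psmc4 was lower with HbHp (-0.18 ± 0.04, adjusted p = 0.0344). This call was lost under a correction for GC content and length, in the libraries of E2 alone and with a replicate block. Across every tested gene, calls amounted to 0.413% higher and 0.194% lower. At 24 h and 400 µM Psme4 (0.25 ± 0.06, adjusted p = 0.014) and Psmd11 (0.22 ± 0.06, adjusted p = 0.0202) were higher and Psmc4 (-0.19 ± 0.05, adjusted p = 0.0343) lower, and none of the 3 passed without replicate 1 or without replicate 2 of HbHp. Calls over the whole transcriptome made up 1.18% higher and 1.03% lower.

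Compared with Hp alone at 400 µM, HbHp slices had higher Psmd11 and Psme4 at both times. At 24 h the differences were 0.24 ± 0.05, adjusted p = 0.00391 for Psmd11 and 0.22 ± 0.05, adjusted p = 0.0221 for Psme4, and neither passed without replicate 1 or without replicate 2 of HbHp. This stood against 0.522% of all tested genes higher and 0.0971% lower. At 48 h 8 members were higher, with Psmd11 at 0.33 ± 0.05, adjusted p = 1.57e-06, and Psmd14, Psma5, Psmc6, Psme4, Psmd4, Psmd2 and Psmd1 between 0.16 and 0.25. Among all tested genes 1.03% were called higher and 0.413% lower. Without replicate 1, 3 or 4 of HbHp, 3, 2 and 3 members passed. In the libraries of E2 alone, where both treatments were given side by side, 7 members passed and Psmd11 differed by 0.39 ± 0.05, adjusted p = 4.55e-08.

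Whether the response to HbHp differed between 48 h and 24 h was tested as an interaction, a contrast added after the data had been seen. No member passed with edgeR at 200 µM (17 at unadjusted p under 0.05) or at 400 µM (0 at unadjusted p under 0.05), and DESeq2 called 0 at both doses. Over all 16473 tested genes, 1685 and 1030 had an unadjusted p under 0.05. For Psmd11 the 48 h change minus the 24 h change was 0.07 ± 0.06, adjusted p = 0.683 at 200 µM and 0.03 ± 0.07, adjusted p = 0.999 at 400 µM. Of all tested genes 0.00607% were higher and 0.00607% lower by this contrast at 200 µM, and 0.0243% and 0.00607% at 400 µM.

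**Figure D4:**
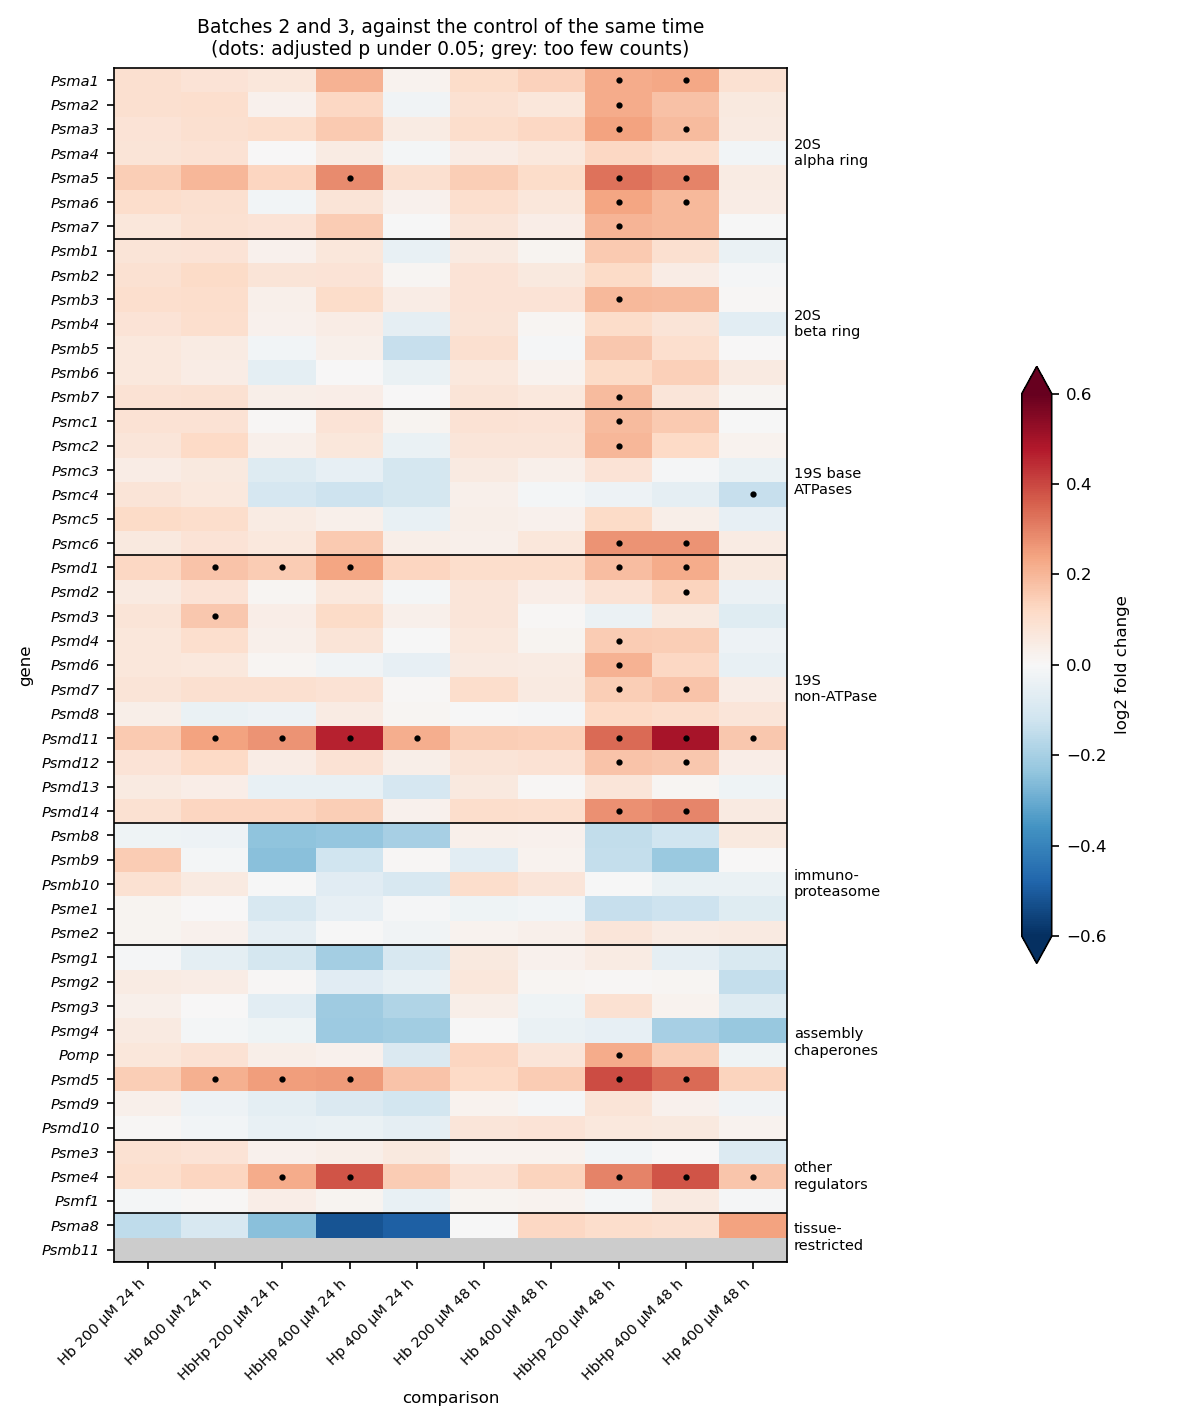
Log2 fold change of each member against the control of the same time in batches 2 and 3, genes in rows by role and treatments in columns, with color from blue (lower) to red (higher), dots for an adjusted p under 0.05 and grey for Psmb11. Psmd11 is red in every column and dotted in 7 of 10, and the column of HbHp 200 µM at 48 h, with 21 dots, rests on all 8 libraries, against 8 calls without replicate 1.

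Around the proteasome, all 10 NRF2 targets rose with HbHp at 400 µM at both times (list medians 1.42 and 1.36), with 200 µM HbHp at 48 h (1.23) and with 400 µM Hb at 24 h and 48 h (0.84 and 0.72), and 8 of 10 with Hp at each time (0.64 and 0.77). Of 9 regulators of proteasome genes, 4 rose with HbHp 400 µM and 4 with Hp alone at 48 h (list medians 0.16 and 0.12). With HbHp Nfe2l1 was not among them (0.10 ± 0.06, adjusted p = 0.255), while Maff (0.95 ± 0.16, adjusted p = 4.81e-06), Mafg (0.44 ± 0.08, adjusted p = 6.73e-05), Mafk (0.36 ± 0.10, adjusted p = 0.0129) and Bach1 (0.43 ± 0.07, adjusted p = 3.05e-06), which pair with or compete with NRF2 at the antioxidant response element, were. Of 10 tested proteasome-bound factors 6 rose with HbHp and 3 with Hp alone, and 3 were higher with HbHp than with Hp. The 6 included Usp14 (0.35 ± 0.06, adjusted p = 5.19e-06), the import factor Akirin2 (0.44 ± 0.07, adjusted p = 3.29e-07) and Zfand5 (0.41 ± 0.06, adjusted p = 9.73e-08), a stress-induced activator of the 26S particle. For the regulators, the log2 differences between HbHp and Hp lay between -0.02 and 0.45 and did not pass.

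Across the 15 comparisons of a treated group with its control, Psmd11 was called higher in 10, Psmd1 and Psmd5 in 7 each, and Psma5 and Psme4 in 5 each, a count in which comparisons that share controls are not independent. The 5 calls of Psma5 and of Psme4 fell in partly different groups. Psma5 rose with heme-albumin at 200 and 400 µM and with HbHp, while Psme4 rose with HbHp and Hp and had values of 0.10 and 0.11 with heme-albumin, which did not pass. Levels in batch 1 and in batches 2 and 3 were not compared, since the libraries of the sets were sequenced apart. Untreated slices at 24 h were the only label found in both sets, and these controls were kept apart by set.

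**Figure D5:**
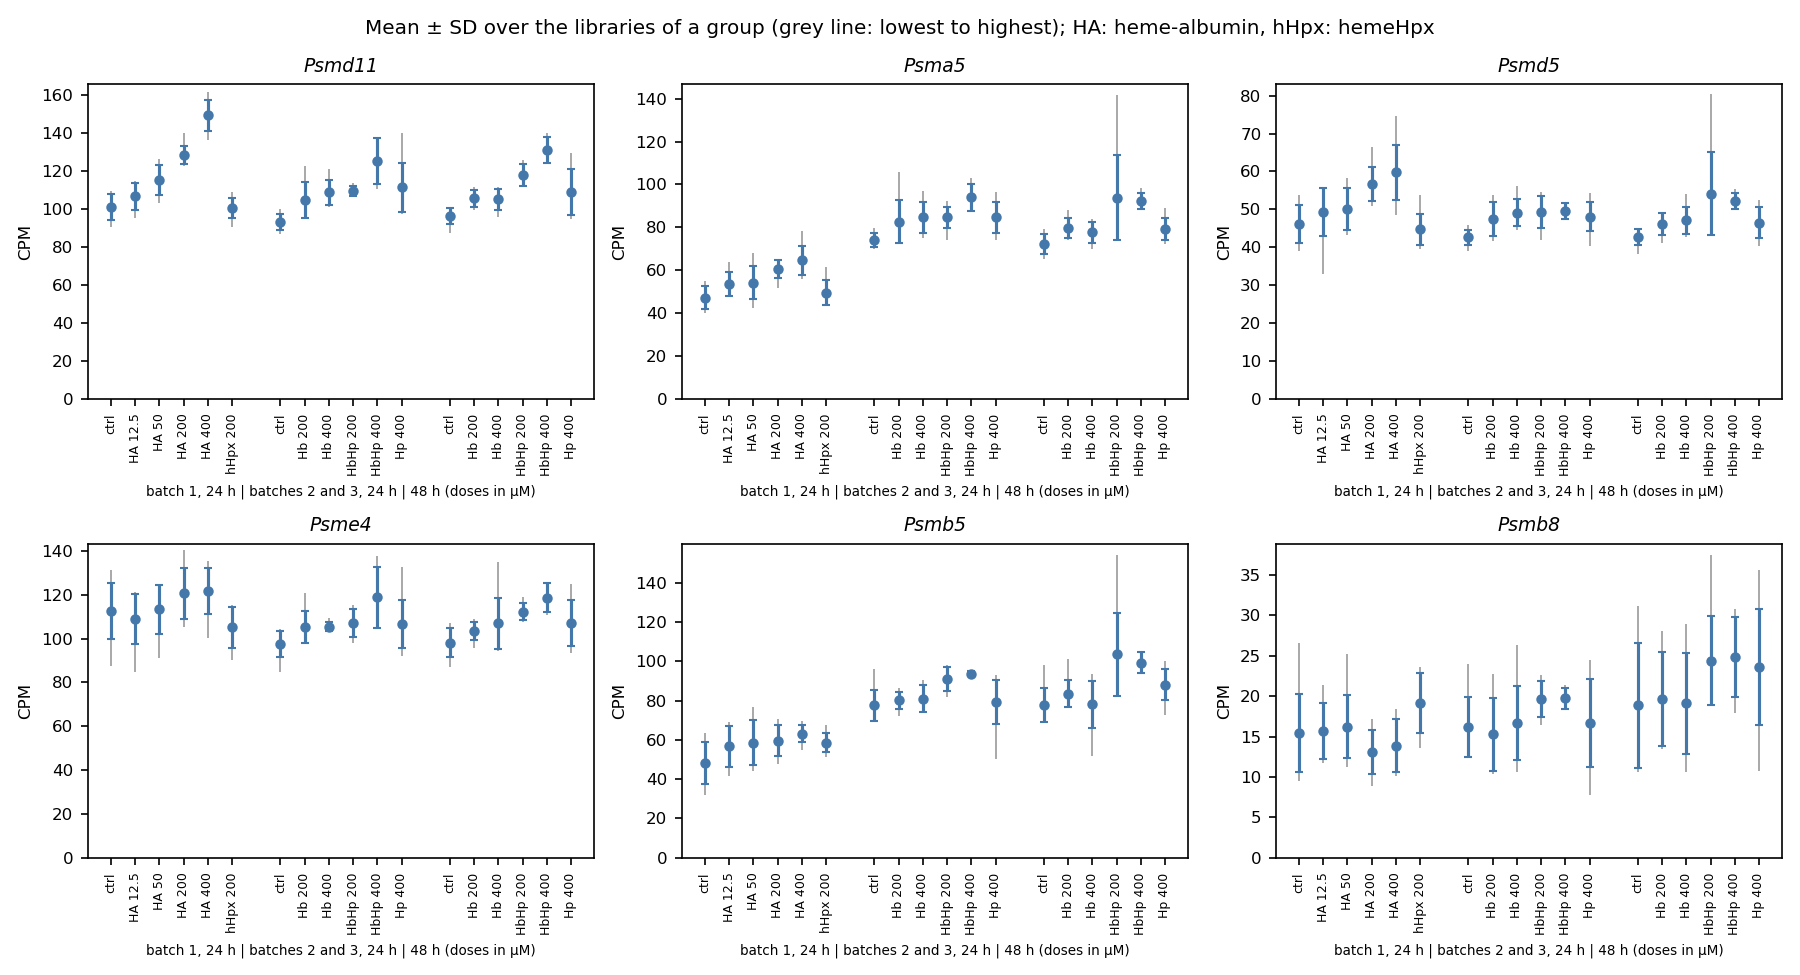
Level in CPM (vertical axes from 0) of 6 members in every group, with points for the mean, blue bars for the SD over libraries and grey lines from the lowest to the highest library, and batch 1 to the left of batches 2 and 3 at 24 h and 48 h. Psmd11 rises stepwise from 101 to 149 CPM with heme-albumin and reaches 131 CPM with HbHp 400 µM at 48 h, while Psmb8 shows wide, overlapping bars.

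Within groups the constitutive genes varied together. Over the 60 libraries of batch 1, after the mean of each group was removed, the correlation of a gene's log2 level with the mean of the other 20S and 19S genes was highest for Psmc5, Psmc3 and Psma5 (Pearson's r of 0.88, 0.87 and 0.86), was 0.58 for Psmd11, and was lowest among the 20S and 19S genes for Psmd8 (-0.07). Pomp and Psmg2 were at 0.75 and 0.76, Psme4 at 0.16, and the inducible subunits Psmb8 and Psmb9 at -0.19 and -0.17. These are descriptions over libraries that share depth and composition.

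Some limits bear on single members. In the mouse annotation used for lengths, Psma2, Psmd1 and Psmg3 overlap another gene on the same strand, and 9 members, among them Psmd5, Psme1 and Psmb9, overlap one on the other strand, so that reads may be shared where counting did not use strand.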

How the data were processed

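RNA had been extracted with the Lexogen SPLIT kit and sequenced from TruSeq mRNA libraries. The authors deposited raw read counts per gene for each library. The submitters' processing notes name featureCounts and GRCm39, and the aligner and annotation release are not given in the sources used here. No other value column was present (0 per-sample columns unused).

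Counts were analysed with edgeR 4.0.16 in R 4.3.3. Genes were filtered with filterByExpr (minimum count 10) and scaled by TMM, which left 15554 genes in batch 1 and 16473 in batches 2 and 3, fitted separately. The quasi-likelihood test used treatment groups in batch 1, and groups with batch and experiment terms in batches 2 and 3. P-values were adjusted by Benjamini-Hochberg over all tested genes, with a threshold of 0.05. CPM used TMM-scaled library sizes, and set means were geometric with an offset of 0.5 CPM. The study's own analysis used DESeq2, which was run here (1.42.0) as an alternative beside RLE scaling, other filters, other terms, a correction for GC content and length, a replicate block and leaving out libraries. Shares of all tested genes are those of the main fits and are not given for the alternatives. Of 188 libraries 167 were assigned. No pair of replicates agreed within sampling noise in 630 pairs (smallest chi-square per degree of freedom 3.48).

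Members and gene lists were chosen with earlier results of these data known. Genes named with values were the catalytic subunits and their inducible counterparts, Psme1, Psme2, Psme4, Pomp and up to 5 members with the largest and 5 with the smallest change among those past the threshold in each comparison. Others, such as Psmd8, Psmd1, Psmg4 and Psma8, were named after their values were seen. Symbols, overlaps and lengths came from GENCODE M21 on GRCm38, and promoters from RefSeq on GRCm38.p6, which did not match Psma8, Psmb1, Psmb2, Psmb7, Psmc3, Psmd3, Psmd7 and Psmg2. Paaf1 of the list of bound factors was not matched. On simulated data for heme-albumin 200 µM (15554 genes), 22.4, 65.7 and 87.9% of genes changed by 0.25, 0.5 and 1 on the log2 scale were called, and 0.059% of unchanged genes. For HbHp 200 µM at 48 h (16470 genes) the shares were 17.9, 56.7 and 78.8%, and 0.037% of unchanged genes. The simulated libraries were drawn independently of each other, so shared codes were not part of them.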

Additional observations from a re-analysis of the deposited data

Results flagged for a closer look

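In replicate 1 of HbHp 200 µM at 48 h, the highest of 8 libraries lay far from the nearest of the others in 4 of the 64 sets of values examined for a lone outlying library, a test by which chance alone marks about 5% of groups. Its geometric mean of the 20S core was 161.1 CPM, against 97.04 to 107.9 CPM in the 7 others. For the 19S particle it was 159.3 CPM, against 115 to 122.1. The immunoproteasome genes were at 32.2 CPM, against 20.58 to 24.08, and the assembly chaperones at 31.97 CPM, against 19.45 to 22.17. The 4 values come from 1 library and are not independent. Counts with and without this library stand beside the results at 48 h.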

How the results depend on the processing

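Of the values recomputed for counts of calls and medians, 708 kept their direction and stayed within the tolerance, 103 moved beyond it and 5 changed sign. Of those for single genes, 1093 kept their side of the threshold, 140 lost it, 22 gained it and 1 changed sign. The cause of the shifts was not tested. With DESeq2, genes called higher went from 0 to 1 for hemeHpx, from 1 to 2 for heme-albumin 200 against 50 µM, from 1 to 2 for Hp 400 µM at 24 h. With a correction for GC content and length, genes called higher went from 1 to 4 for heme-albumin 200 against 50 µM, from 1 to 6 for heme-albumin 400 against 200 µM, from 4 to 2 for HbHp 200 µM at 24 h, from 1 to 0 for Hp 400 µM at 24 h, from 2 to 1 for HbHp against Hb 400 µM at 24 h, from 21 to 9 for HbHp 200 µM at 48 h, from 2 to 0 for Hp 400 µM at 48 h, from 4 to 0 for HbHp against Hb 200 µM at 48 h, from 8 to 15 for HbHp against Hp 400 µM at 48 h. With a correction for GC content and length, genes called lower went from 0 to 1 for heme-albumin 400 µM, from 1 to 0 for hemeHpx, from 1 to 0 for HbHp against Hb 200 µM at 24 h, from 1 to 0 for Hp 400 µM at 48 h, from 17 to 26 for E2 against E1. With a correction for GC content and length, median log2 fold changes went from 0.12 to 0.073 for HbHp 200 µM at 48 h, from 0.0802 to 0.0193 for HbHp against Hb 200 µM at 48 h. With at least 10 counts required in every library, genes called higher went from 0 to 1 for hemeHpx, from 1 to 2 for heme-albumin 200 against 50 µM. With the batch term only, genes called higher went from 4 to 2 for Hb 400 µM at 24 h, from 4 to 1 for HbHp 200 µM at 24 h, from 1 to 0 for Hp 400 µM at 24 h, from 2 to 0 for HbHp against Hb 400 µM at 24 h, from 2 to 0 for HbHp against Hp 400 µM at 24 h, from 2 to 0 for Hp 400 µM at 48 h, from 4 to 1 for HbHp against Hb 400 µM at 48 h, from 8 to 1 for HbHp against Hp 400 µM at 48 h. With the batch term only, genes called lower went from 1 to 2 for HbHp against Hb 200 µM at 24 h, from 0 to 1 for HbHp against Hb 200 µM at 48 h. In the libraries of E2 alone, genes called higher went from 4 to 1 for Hb 400 µM at 24 h, from 4 to 1 for HbHp 200 µM at 24 h, from 5 to 3 for HbHp 400 µM at 24 h, from 1 to 0 for Hp 400 µM at 24 h, from 2 to 0 for HbHp against Hb 400 µM at 24 h, from 21 to 3 for HbHp 200 µM at 48 h, from 13 to 2 for HbHp 400 µM at 48 h, from 2 to 0 for Hp 400 µM at 48 h, from 4 to 0 for HbHp against Hb 200 µM at 48 h, from 4 to 2 for HbHp against Hb 400 µM at 48 h. In the libraries of E2 alone, genes called lower went from 1 to 0 for HbHp against Hb 200 µM at 24 h, from 1 to 0 for HbHp against Hb 400 µM at 24 h, from 1 to 0 for Hp 400 µM at 48 h. In the libraries of E2 alone, median log2 fold changes went from 0.0414 to 0.10 for Hb 400 µM at 48 h, from 0.0687 to -0.0046 for HbHp against Hb 400 µM at 48 h. Without batch and experiment terms, genes called higher went from 4 to 2 for Hb 400 µM at 24 h, from 5 to 10 for HbHp 400 µM at 24 h, from 1 to 3 for Hp 400 µM at 24 h, from 0 to 2 for HbHp against Hb 200 µM at 24 h, from 2 to 1 for HbHp against Hb 400 µM at 24 h, from 2 to 0 for HbHp against Hp 400 µM at 24 h, from 21 to 32 for HbHp 200 µM at 48 h, from 13 to 25 for HbHp 400 µM at 48 h, from 4 to 22 for HbHp against Hb 200 µM at 48 h, from 4 to 13 for HbHp against Hb 400 µM at 48 h, from 8 to 1 for HbHp against Hp 400 µM at 48 h. Without batch and experiment terms, genes called lower went from 1 to 0 for HbHp against Hb 400 µM at 24 h, from 1 to 0 for Hp 400 µM at 48 h. Without batch and experiment terms, median log2 fold changes went from 0.0236 to 0.0779 for HbHp 200 µM at 24 h, from 0.0475 to 0.12 for HbHp 400 µM at 24 h, from -0.013 to 0.0395 for Hp 400 µM at 24 h, from -0.0557 to 0.0115 for HbHp against Hb 200 µM at 24 h, from -0.0291 to 0.0195 for HbHp against Hb 400 µM at 24 h, from 0.12 to 0.20 for HbHp 200 µM at 48 h, from 0.10 to 0.17 for HbHp 400 µM at 48 h, from 0.0021 to 0.062 for Hp 400 µM at 48 h, from 0.0802 to 0.13 for HbHp against Hb 200 µM at 48 h, from 0.0687 to 0.12 for HbHp against Hb 400 µM at 48 h. Without batch and experiment terms, Psmb10 went from -0.0021 to 0.22 on the log2 scale for HbHp 200 µM at 48 h. With no filter on low counts, genes called higher went from 1 to 0 for heme-albumin 200 against 50 µM. With no filter on low counts, genes called lower went from 1 to 0 for heme-albumin 200 µM, from 1 to 0 for hemeHpx. With a replicate block, genes called higher went from 1 to 4 for heme-albumin 50 µM, from 0 to 4 for hemeHpx, from 1 to 2 for heme-albumin 200 against 50 µM, from 1 to 3 for heme-albumin 400 against 200 µM, from 2 to 1 for HbHp against Hb 400 µM at 24 h, from 4 to 7 for HbHp against Hb 200 µM at 48 h. With a replicate block, genes called lower went from 0 to 1 for heme-albumin 400 µM, from 1 to 5 for hemeHpx, from 1 to 0 for HbHp against Hb 200 µM at 24 h, from 1 to 0 for HbHp against Hb 400 µM at 24 h, from 1 to 0 for Hp 400 µM at 48 h. With a replicate block, median log2 fold changes went from 0.0475 to 0.10 for HbHp 400 µM at 24 h. Leaving out 1 library at a time gave counts of genes called higher of 0 to 1 for Hb 200 µM at 24 h, 1 to 4 for HbHp 200 µM at 24 h, 3 to 5 for HbHp 400 µM at 24 h, 1 to 2 for Hp 400 µM at 24 h, 0 to 2 for HbHp against Hb 400 µM at 24 h, 0 to 2 for HbHp against Hp 400 µM at 24 h, 8 to 19 for HbHp 200 µM at 48 h, 7 to 17 for HbHp 400 µM at 48 h, 2 for HbHp against Hb 200 µM at 48 h, 2 to 4 for HbHp against Hb 400 µM at 48 h, 2 to 8 for HbHp against Hp 400 µM at 48 h. The same gave counts called lower of 1 for heme-albumin 400 µM, 0 to 1 for HbHp against Hb 400 µM at 24 h. The same gave medians of 0.0408 to 0.14 for HbHp 200 µM at 48 h, -0.0021 for HbHp against Hb 200 µM at 48 h. The libraries behind the single-library shifts were replicate 1 of HbHp 200 µM at 48 h, replicates 1, 2 and 3 of HbHp 400 µM at 24 h, replicates 1, 3 and 4 of HbHp 400 µM at 48 h, control replicates 8 and 10 at 24 h, and replicate 8 of heme-albumin 400 µM. Leaving out replicate 1 of HbHp 200 µM at 48 h and replicate 8 of heme-albumin 400 µM was chosen after seeing the data. The block used the code that ends each library name, which the labels do not tie to an animal or a day. Deviations of libraries that share a code correlated at a median r of 0.247 over 169 pairs in batch 1 (96 pairs over 0.1) and 0.102 over 233 pairs in batches 2 and 3 (117 over 0.1). For the other pairs the median r was -0.00923 in batch 1 and -0.00742 in batches 2 and 3. In batch 1, 22 of 60 libraries correlated best with their own code, and in batches 2 and 3, 14 of 96.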

Other observations

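Of the 188 libraries, 21 could not be placed in a group and are given as values. In 20 of them the treatment tag reads HbHpx at 400 µM whereas the title names haptoglobin, and 1 untreated library has no clear time. In the 10 tagged libraries at 24 h, the geometric mean of the 20S and 19S genes ran from 97.1 to 110.2 CPM (median 103) and Psmd11 from 110.1 to 129.6 CPM (median 124). In the 10 at 48 h, the same mean ran from 94.4 to 111.6 CPM (median 99.8) and Psmd11 from 102 to 128 CPM (median 116). Psme4 ran from 104 to 138 CPM (median 112) at 24 h and from 106 to 124 CPM (median 113) at 48 h. In the untreated library the mean of the 20S and 19S genes was 97.4 CPM and Psmd11 was at 89.8 CPM.

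The genes outside the proteasome whose level followed the mean of the 20S and 19S genes most closely over the 60 libraries of batch 1, with group means removed, were Rps15a (Pearson's r of 0.89), Bud31 (0.89), Rps3 (0.88), Drg1 (0.87), Cops5 (0.87), Eif4a3 (0.86), Rpl19 (0.86), Cnbp (0.86), Txn2 (0.86) and Rpl35a (0.85). Of these 10, Cops5, the deubiquitinase-like subunit of the COP9 signalosome, rose with heme-albumin at 400 µM by 0.25 on the log2 scale (adjusted p = 1.74e-05), and Cnbp by 0.30 (adjusted p = 1.09e-04), while Rps3 (0.02, adjusted p = 0.888) and the 7 others did not pass. The correlations are descriptions over libraries that share depth and composition.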
